A study of Mus musculus with 9 samples.

Results

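The 10 genes described here encode the enzymes that make serine and pass its one-carbon units through folate, namely Phgdh, Psat1, Psph, Shmt1, Shmt2, Mthfd1, Mthfd1l, Mthfd2, Mthfd2l and Aldh1l2. They were listed by name as enzymes of this pathway, and all 10 were found among the 49315 Ensembl gene IDs that were counted. Bulk RNA sequencing covered 9 libraries of sorted cells, 3 each of astrocytes and of SB28 cells sorted as mKate2- or as mKate2+. SB28 is a single mouse glioblastoma line of C57BL6 origin that expresses GFP. The astrocytes were primary neonatal cells from C57BL6 (mito::mKate2) mice, grown from the subventricular zone of newborn pups, in which a red fluorescent protein sits in mitochondria under the broadly active CAG promoter. Tumor cells and astrocytes were mixed in equal numbers for 2 days in DMEM F12 medium with FBS, N2 supplement, EGF and FGF, and every library comes from these co-cultures, which the labels call untreated. Only the astrocytes were stained, with the dye CellTrace Violet before mixing, and since the series' own account of the sort gates gives that stain to the SB28 gates, groups here follow the sample titles. SB28 cells with the red signal of astrocyte mitochondria were sorted as mKate2+ and those without it as mKate2-.

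Total counts ranged from 24454561 to 35135662 in astrocyte libraries, from 27187348 to 35891589 in mKate2- libraries and from 34175016 to 39287841 in mKate2+ libraries. Levels are given as CPM, the count of a gene scaled by the total of its library, and were compared between genes only per kilobase of exon. Aldh1l2 had 69, 304 and 394 counts in astrocyte libraries 1 to 3 and at least 478 in SB28 libraries, the other 9 genes had at least 328 counts in every library, and the spread between libraries rather than counting error limited precision. Differences between groups are log2 fold changes from edgeR's quasi-likelihood test, with p-values adjusted by the Benjamini-Hochberg method over all genes tested, and "rose" or "higher" is used of single genes that passed an adjusted p of 0.05. In 2 cases a library stood apart from the others of its group. mKate2+ library 2 differed from mKate2+ libraries 1 and 3 by 150 and 135 in chi-square per degree of freedom, whereas libraries 1 and 3 differed from each other by 17.4. Astrocyte library 3 had 362 CPM of Aldoc, a glycolytic enzyme abundant in astrocytes, where libraries 1 and 2 had 55.6 and 33.8 CPM. For the 10 genes, calls against astrocytes that were lost on leaving out a library are given beside the result.

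Marker genes were used to check the labels. The glutamate transporter gene Slc1a3 was at 173, 177 and 236 CPM in astrocyte libraries 1 to 3 and at most 2.38 CPM in any SB28 library. Apoe was at 264, 260 and 270 CPM in astrocytes and at most 3.22 CPM in SB28 cells. Sox9, Aldh1l1 and Atp1b2 were also abundant in astrocytes, Sox9 with 181, 173 and 173 CPM and Atp1b2 with 57.5, 53.6 and 116 CPM, whereas Gfap, S100b and Gjb6 were low or missing. Gfap was at 8.83, 3.42 and 19.4 CPM in astrocytes, S100b did not exceed 2.16 CPM, and Gjb6 had 0 counts in all 9 libraries. The glial progenitor genes Olig1 and Olig2 were abundant in the astrocyte libraries, Olig1 with 541, 241 and 304 CPM and Olig2 with 268, 159 and 155 CPM, whereas Sox10 did not exceed 0.0611 CPM. Astrocyte library 3 also stood apart in Slc1a2, Aqp4 and Fgfr3, at 56.8, 59.7 and 63.1 CPM. In astrocyte libraries 1 and 2 these genes did not exceed 11.3, 6.82 and 9.72 CPM. The 12 astrocyte markers summed to 898, 840 and 1530 CPM in astrocytes and to between 91.5 and 129 CPM in SB28 libraries, where Sox9 gave most of the sum. Of 10 microglia and macrophage markers, 7 stayed under 1 CPM in every library, and of the 3 that were tested 1 was higher and 2 were lower in each SB28 population, beside shares of 29.3% higher and 33.8% lower over all genes for mKate2- cells and 28.0% and 32.1% for mKate2+ cells, and 3 genes allow no reading of these shares. Tmem119, the most abundant, had 39.1, 24.8 and 30.5 CPM in astrocytes and between 47.3 and 61.1 CPM in SB28 libraries. Cd68 had 15.7, 17.9 and 6.69 CPM in astrocytes and at most 3.54 CPM in SB28 libraries, and P2ry12 had 1.06, 2.54 and 0.484 CPM in astrocytes and at most 0.0555 CPM in SB28 libraries. Of 7 neuron markers, Stmn2 was the most abundant in astrocytes, at 11.4, 43.4 and 38.5 CPM, and had at most 1.47 CPM in SB28 cells. Of the 5 neuron markers tested, 1 was higher and 3 were lower in mKate2- cells, beside 29.3% and 33.8% of all genes. In mKate2+ cells 0 were higher and 3 lower, beside 28.0% and 32.1%. With only 5 genes these shares allow no reading. Syp was the marker that went the other way, with 1.68, 0.795 and 1.68 CPM in astrocytes and between 2.31 and 3.27 CPM in SB28 libraries. The number of neuron markers higher in mKate2- cells was 0 with upper-quartile normalization and without a filter on low counts. That number was also 0 without any 1 of the mKate2- libraries and without astrocyte library 2. Of 9 endothelial, mural and fibroblast markers, Col1a1 led in both cell types. It had 325, 324 and 151 CPM in astrocytes and between 105 and 181 CPM in SB28 libraries. Pdgfrb had 60.9, 57.7 and 58.2 CPM in astrocytes and between 42.2 and 59.9 CPM in SB28 libraries. Cldn5 did not exceed 0.0335 CPM. The part of other cells in the results for the astrocyte libraries was not tested.

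Serine is made from 3-phosphoglycerate, an intermediate of glycolysis. PHGDH oxidizes it, PSAT1 transfers an amino group from glutamate to the product, and PSPH removes the phosphate. Serine hydroxymethyltransferases, SHMT2 in mitochondria and SHMT1 in the cytosol and nucleus, then split serine into glycine and a one-carbon unit carried by tetrahydrofolate. In mitochondria MTHFD2 or MTHFD2L oxidizes this unit and MTHFD1L releases it as formate, while ALDH1L2 can burn it to carbon dioxide with formation of NADPH. In the cytosol the trifunctional MTHFD1 takes formate back up for purines, thymidylate and methionine. In the brain, serine synthesis is known mainly from astrocytes and their radial precursors, which supply neurons, and MTHFD2 is known for low levels in most adult tissues and high levels in embryos and tumors. The transcription factor ATF4, which responds to amino acid shortage and to mitochondrial stress, is a known activator of several of these genes.

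Promoter sequences are shown for 3 genes, Phgdh, Mthfd2 and Asns. Phgdh encodes the first enzyme of the pathway, and Mthfd2 had the largest fold change of the 10. Asns is the asparagine synthetase gene and a known ATF4 target. Its profile over the 9 libraries was among the 5 nearest to that of Mthfd2. Among 13449 genes compared with Phgdh in profile, Mthfd2 ranked 476 and Asns 743. Each sequence is the 250 bases before a RefSeq gene start in GRCm38.p6, on the minus strand and in lower case. TGATGNAA, the core of the CHOP-ATF4 response element, is in capitals.
Phgdh, chr3:98339970-98340219: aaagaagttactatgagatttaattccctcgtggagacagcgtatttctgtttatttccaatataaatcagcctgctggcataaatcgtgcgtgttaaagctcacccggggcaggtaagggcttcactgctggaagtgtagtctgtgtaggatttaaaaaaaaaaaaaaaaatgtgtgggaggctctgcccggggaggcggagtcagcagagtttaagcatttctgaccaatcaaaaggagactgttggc
Mthfd2, chr6:83317605-83317854: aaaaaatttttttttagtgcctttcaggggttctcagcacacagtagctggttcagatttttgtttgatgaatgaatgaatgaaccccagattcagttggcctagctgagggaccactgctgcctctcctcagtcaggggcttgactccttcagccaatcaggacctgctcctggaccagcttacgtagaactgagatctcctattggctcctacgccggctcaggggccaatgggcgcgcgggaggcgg
Asns, chr6:7693210-7693459: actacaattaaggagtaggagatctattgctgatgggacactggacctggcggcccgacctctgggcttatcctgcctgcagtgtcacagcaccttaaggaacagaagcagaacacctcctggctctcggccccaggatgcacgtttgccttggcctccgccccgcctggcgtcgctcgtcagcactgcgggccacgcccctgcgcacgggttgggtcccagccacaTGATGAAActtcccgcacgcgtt
Windows from 250 bases before to 50 after the start were searched on both strands for TGATGNAA and for CACGTG, the E-box bound by MYC. Of the 10 genes, 9 have such a window, and 0 of them held TGATGNAA and 0 held CACGTG. Over all 27025 genes with RefSeq windows of this length, 4.51% had TGATGNAA and 8.09% had CACGTG in a window, or 3.97% and 7.15% of the 32851 windows. TGATGNAA was found 23 bases before the start of Asns on the strand of the gene and, on the opposite strand, 193 bases before that of Chac1 and 15 bases after that of Trib3, and these 3 are known ATF4 targets outside the 10 genes.

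All 10 genes were higher in SB28 cells than in astrocytes without overlap, in that the lowest of 6 SB28 libraries lay above the highest of 3 astrocyte libraries in CPM, which held for 27.6% of the 13450 genes above 1 CPM in at least 2 libraries. Together they took 0.0854% ± 0.00929 of the counts in astrocytes (SD, n = 3), 0.288% ± 0.0182 in mKate2- cells (SD, n = 3) and 0.291% ± 0.0134 in mKate2+ cells (SD, n = 3). In bulk libraries fewer cells that express a gene and less RNA of it per cell cannot be told apart. In mKate2- cells 9 of the 10 genes were higher than in astrocytes at an adjusted p below 0.05 and 0 were lower, against 29.3% higher and 33.8% lower of all 13356 genes tested. In mKate2+ cells 10 of 10 were higher and 0 lower, against 28.0% and 32.1% of 13342 genes. With the study's added threshold of a log2 fold change above 1, 8 of 10 were called higher in each population, where 11.5% of all genes were called higher and 22.4% lower in mKate2- cells, and 12.2% and 22.8% in mKate2+ cells. This count was 7 of 10 in both populations with upper-quartile normalization, in mKate2- cells without mKate2- library 2 or 3, and in mKate2+ cells without any 1 of the mKate2+ libraries or without astrocyte library 1 or 2. The genes that dropped out were Mthfd1, at log2 fold changes of 0.97 and 0.96 with upper-quartile normalization, 0.98 without mKate2- library 3 and 0.98 without mKate2+ library 3, and Aldh1l2, at 0.93 without astrocyte library 1 and by its adjusted p otherwise. By the adjusted p alone, leaving out a library gave 8 to 10 genes in mKate2- cells and 7 to 9 in mKate2+ cells, with 7 without mKate2+ library 2. The median log2 fold change of the 10 genes was 1.74 in mKate2- cells and 1.80 in mKate2+ cells, beside -0.038 and -0.018 over all genes tested. The comparisons share the astrocyte libraries, so their values stand side by side and are not independent of each other.

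**Figure D1:**
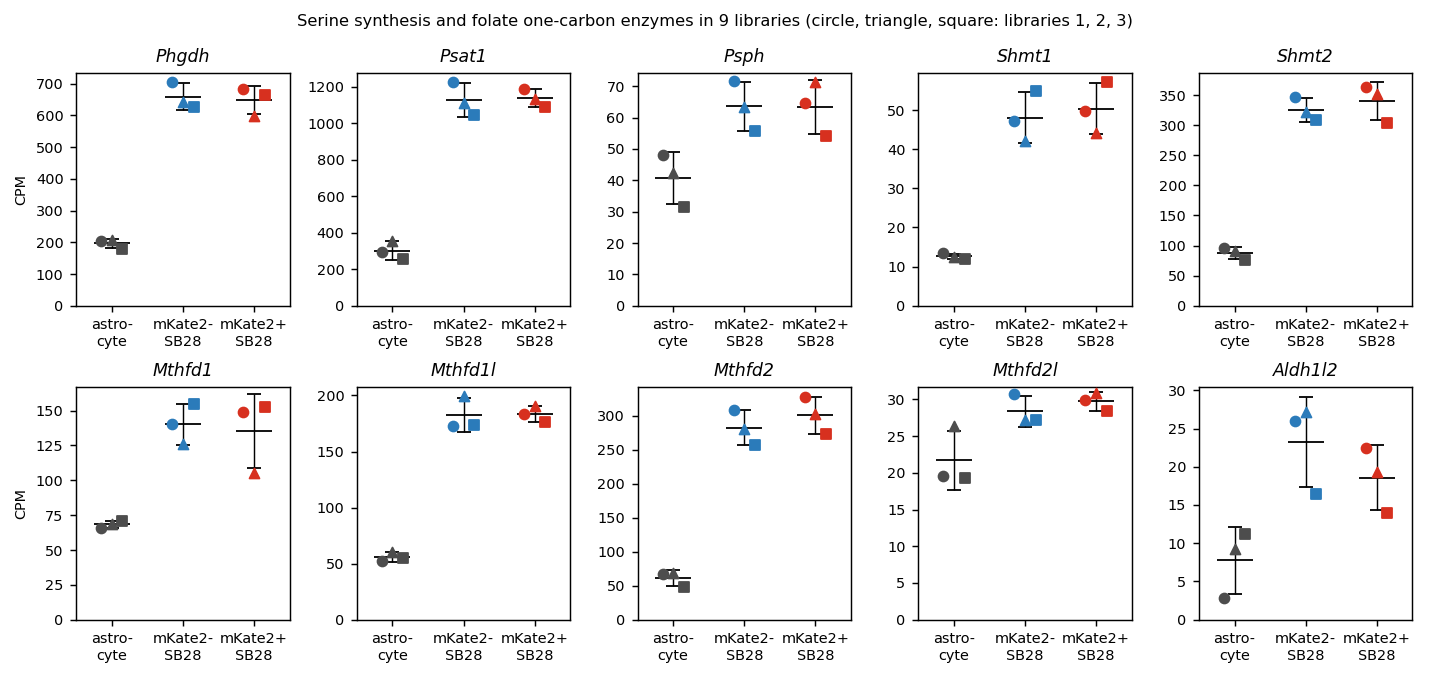
CPM (linear axis from 0) of each of the 10 genes in the 9 libraries, with points for single libraries and black bars for the mean and SD of 3. All SB28 points lie above all astrocyte points in each panel, and the points of mKate2- and mKate2+ cells overlap.

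Phgdh (ENSMUSG00000053398, chromosome 3 of GRCm38 from 98313170 to 98339990), which encodes the enzyme that commits glycolytic carbon to serine, had 203, 207 and 179 CPM in the astrocyte libraries. It had 707, 642 and 627 CPM in mKate2- libraries and 683, 598 and 665 CPM in mKate2+ libraries. The SB28 values thus lay far above the astrocyte values, and the lowest of them was that of mKate2+ library 2. The log2 fold change over astrocytes was 1.76 in mKate2- cells (standard error 0.12, edgeR adjusted p = 1.98e-05) and 1.80 in mKate2+ cells (standard error 0.12, edgeR adjusted p = 3.08e-05).

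Psat1 (ENSMUSG00000024640, chromosome 19 from 15904678 to 15947337) is the aminotransferase gene of the second step. Its level was 296, 357 and 254 CPM in astrocytes, 1225, 1108 and 1044 CPM in mKate2- libraries and 1189, 1134 and 1091 CPM in mKate2+ cells. The fold change was 3.76 in mKate2- cells (log2 1.91, edgeR adjusted p = 4.23e-05) and 3.97 in mKate2+ cells (log2 1.99, edgeR adjusted p = 5.81e-05). Psph (ENSMUSG00000029446, chromosome 5 from 129765558 to 129787449), the phosphatase gene of the last step, differed far less. It was at 48.2, 42.3 and 31.6 CPM in astrocytes, 71.6, 63.2 and 55.9 CPM in mKate2- libraries and 64.6, 71.5 and 54.1 CPM in mKate2+ cells. Astrocyte library 1 thus came close to the lowest SB28 library. The fold change of Psph was 1.57 in mKate2- cells (edgeR adjusted p = 0.0152) and 1.64 in mKate2+ cells (edgeR adjusted p = 0.0167). This call was lost without mKate2- library 1 (log2 0.57, adjusted p = 0.0642), without mKate2+ library 2 (log2 0.59, adjusted p = 0.0576) and without astrocyte library 2 against mKate2+ cells (log2 0.72, adjusted p = 0.0524). Psph shares 10.4% of its exonic length with Cct6a on the opposite strand, and reads there cannot be assigned to one of them if strand was not used in counting.

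Shmt2 (ENSMUSG00000025403, chromosome 10 from 127517123 to 127522444) encodes the mitochondrial serine hydroxymethyltransferase. It had 95.7, 90.3 and 76.4 CPM in astrocytes, 348, 321 and 308 CPM in mKate2- libraries and 364, 351 and 304 CPM in mKate2+ cells. The cytosolic form, Shmt1 (ENSMUSG00000020534, chromosome 11 from 60788104 to 60811718), had 13.4, 12.4 and 11.95 CPM in astrocytes, 47.1, 42.0 and 55.0 CPM in mKate2- libraries and 49.7, 44.2 and 57.1 CPM in mKate2+ cells. Both rose by nearly the same factor. The fold change in mKate2- cells was 3.76 for Shmt2 (edgeR adjusted p = 2.03e-05) and 3.85 for Shmt1 (edgeR adjusted p = 3.16e-05), and in mKate2+ cells it was 4.09 for Shmt2 (edgeR adjusted p = 3.95e-05) and 4.21 for Shmt1 (edgeR adjusted p = 3.30e-05). Per kilobase of exon, Shmt2 exceeded Shmt1 by 8.67 ± 0.600 times in astrocytes (SD, n = 3), 8.59 ± 1.38 times in mKate2- cells (SD, n = 3) and 8.57 ± 1.71 times in mKate2+ cells (SD, n = 3), differences far within the spread between libraries.

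Mthfd2 (ENSMUSG00000005667, chromosome 6 from 83305691 to 83325908), the mitochondrial dehydrogenase and cyclohydrolase gene, had the largest fold change of the 10 in both populations. Its level was 67.9, 68.1 and 47.9 CPM in astrocytes, 309, 281 and 257 CPM in mKate2- libraries and 327, 303 and 273 CPM in mKate2+ cells. The fold change was 4.65 in mKate2- cells (log2 2.22, standard error 0.17, edgeR adjusted p = 3.44e-05) and 5.17 in mKate2+ cells (log2 2.37, standard error 0.18, edgeR adjusted p = 4.45e-05). Its paralog Mthfd2l (ENSMUSG00000029376, chromosome 5 from 90931117 to 91021368), which catalyzes the same steps, had the smallest. It was at 19.5, 26.3 and 19.3 CPM in astrocytes, 30.8, 27.1 and 27.2 CPM in mKate2- libraries and 29.9, 30.9 and 28.4 CPM in mKate2+ cells. The log2 fold change of Mthfd2l was 0.40 in mKate2- cells (95% interval 0.041 to 0.76, edgeR adjusted p = 0.0527) and 0.53 in mKate2+ cells (95% interval 0.14 to 0.92, edgeR adjusted p = 0.0255). The first of these passed without astrocyte library 2 (log2 0.54, adjusted p = 0.0169), and the second no longer passed without astrocyte library 1 (log2 0.46, adjusted p = 0.0640), astrocyte library 3 (0.43, 0.0725), mKate2+ library 1 (0.55, 0.0629), mKate2+ library 2 (0.47, 0.0648) or mKate2+ library 3 (0.58, 0.0515). Per kilobase of exon, Mthfd2 exceeded Mthfd2l by 6.63, 4.93 and 4.73 times in the astrocyte libraries, by 19.1, 19.7 and 18.0 times in mKate2- libraries and by 20.8, 18.7 and 18.3 times in mKate2+ libraries. The ratio was thus higher in every SB28 library than in any astrocyte library, and the difference far exceeded the spread within groups.

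Mthfd1l (ENSMUSG00000040675, chromosome 10 from 3973118 to 4167081), the mitochondrial formate-producing enzyme gene, had 52.1, 60.8 and 54.6 CPM in astrocytes, 173, 200 and 174 CPM in mKate2- libraries and 184, 190 and 176 CPM in mKate2+ cells. Mthfd1 (ENSMUSG00000021048, chromosome 12 from 76255298 to 76319803), its cytosolic counterpart, had 65.9, 68.5 and 70.8 CPM in astrocytes, 140, 126 and 155 CPM in mKate2- libraries and 149, 105 and 153 CPM in mKate2+ cells. Both rose, Mthfd1 by the smaller factor. The fold change in mKate2- cells was 3.30 for Mthfd1l (edgeR adjusted p = 1.66e-05) and 2.07 for Mthfd1 (edgeR adjusted p = 0.000116). In mKate2+ cells it was 3.47 for Mthfd1l (edgeR adjusted p = 2.54e-05) and 2.08 for Mthfd1 (edgeR adjusted p = 0.000607). The ratio of Mthfd1l to Mthfd1 per kilobase was 0.792, 0.889 and 0.772 in astrocyte libraries, 1.24, 1.59 and 1.12 in mKate2- libraries and 1.24, 1.82 and 1.16 in mKate2+ libraries, so that per kilobase the mitochondrial form was the lower of the pair in every astrocyte library and the higher in every SB28 library. Library 2 had the highest ratio of each group.

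**Figure D2:**
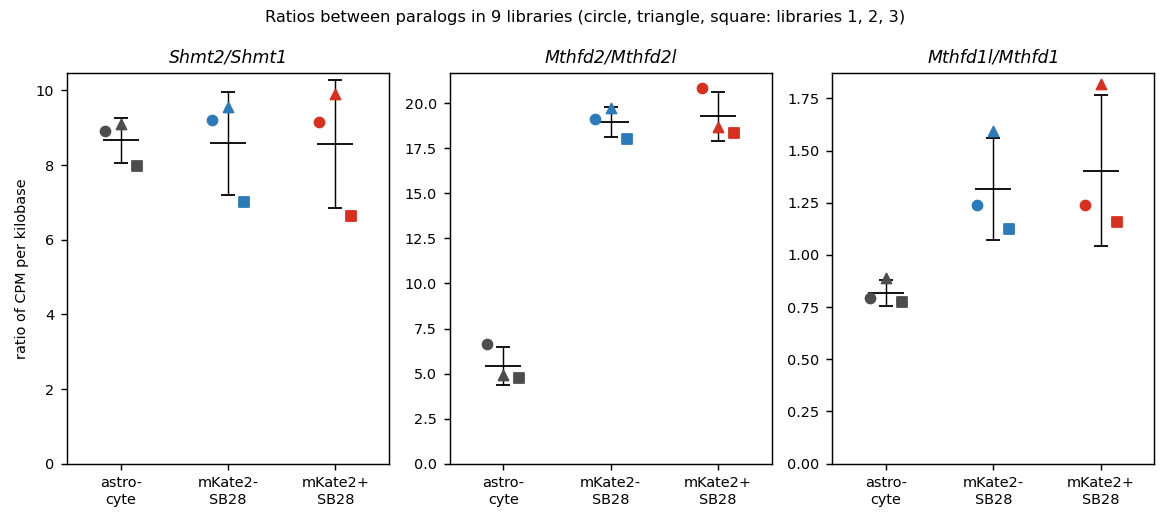
Ratio of CPM per kilobase of exon (linear axis from 0) between 3 pairs of paralogs in each library, with the mean and SD of 3. Shmt2 over Shmt1 is alike in the 3 groups, whereas Mthfd2 over Mthfd2l and Mthfd1l over Mthfd1 are higher in every SB28 library than in any astrocyte library.

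Aldh1l2 (ENSMUSG00000020256, chromosome 10 from 83487450 to 83534140), the mitochondrial formyltetrahydrofolate dehydrogenase gene, was the least expressed of the 10 and the most variable between libraries. It had 2.82, 9.29 and 11.2 CPM in astrocytes, 26.0, 27.2 and 16.5 CPM in mKate2- libraries and 22.5, 19.3 and 14.0 CPM in mKate2+ cells. The lowest SB28 library, mKate2+ library 3, was little above astrocyte library 3. The fold change was 3.03 in mKate2- cells (log2 1.60, standard error 0.45, edgeR adjusted p = 0.0151) and 2.52 in mKate2+ cells (log2 1.34, standard error 0.45, edgeR adjusted p = 0.0353). The call in mKate2- cells was lost without mKate2- library 2 (log2 1.47, adjusted p = 0.0524), and that in mKate2+ cells without mKate2+ library 1 (1.21, 0.0934), mKate2+ library 2 (1.28, 0.0827) or astrocyte library 2 (1.46, 0.0655). D10Wsu102e on the opposite strand covers 14.1% of the exonic length of Aldh1l2.

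Compared per kilobase of exon, the 10 genes kept much the same order in the 3 groups. Phgdh and Psat1 stood highest, with 79.0 ± 6.15 and 71.1 ± 12.1 CPM per kilobase in astrocytes (SD, n = 3), 265 ± 17.0 and 265 ± 21.6 in mKate2- cells (SD, n = 3) and 261 ± 18.1 and 267 ± 11.6 in mKate2+ cells (SD, n = 3), and did not differ from each other beyond their spread. Shmt2 came next with 28.1 ± 3.20 CPM per kilobase in astrocytes, 105 ± 6.42 in mKate2- cells and 109 ± 10.2 in mKate2+ cells (SD, n = 3 each). Mthfd2 followed with 17.6 ± 3.34, 81.0 ± 7.38 and 86.2 ± 7.76 CPM per kilobase. Psph, the last enzyme of serine synthesis, had 9.40 ± 1.94 CPM per kilobase in astrocytes and 14.7 ± 1.82 in mKate2- cells (SD, n = 3 each), far below the enzymes of the steps before it. Mthfd2l and Shmt1 were neighbours within their spread in astrocytes, at 3.27 ± 0.603 and 3.24 ± 0.193 CPM per kilobase, whereas Shmt1 stood above Mthfd2l in mKate2- cells, at 12.4 ± 1.68 against 4.27 ± 0.315 (SD, n = 3 each). Aldh1l2 was last in all 3 groups.

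**Figure D3:**
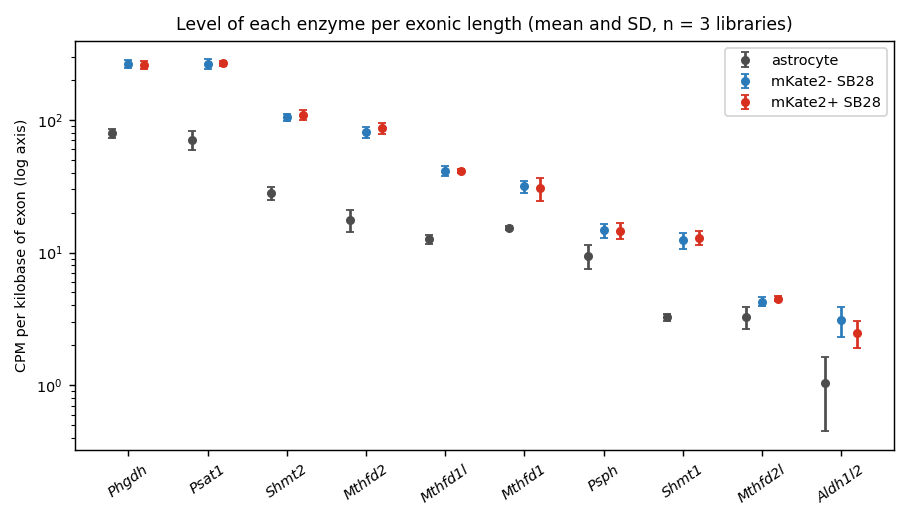
Mean CPM per kilobase of exon (log axis) of the 10 genes, with bars for the SD of 3 libraries, in astrocytes, mKate2- and mKate2+ SB28 cells. Phgdh and Psat1 are highest and Aldh1l2 lowest in all 3 groups.

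The comparison of mKate2+ with mKate2- cells asked whether tumor cells that had taken up astrocyte mitochondria differed from those that had not. None of the 10 genes passed. Of the 10, 0 were called at an adjusted p below 0.05 and 0 by the study's criteria for this comparison (a fold change above 1.5, an unadjusted p below 0.05 and a mean normalized count above 50), where 0% of all 11854 genes passed the former, 0.194% were higher by the latter and 0.169% were lower. At an unadjusted p below 0.05, 0 of the 10 passed, where 241 of all genes did (2.03%). The CPM ranges of the populations overlapped for all 10, and ranges without overlap were found for 8.83% of genes. The largest difference was that of Aldh1l2, with a log2 fold change of -0.27 (95% interval -0.82 to 0.27, edgeR adjusted p = 0.923). For Mthfd2 the log2 fold change was 0.14 (95% interval -0.12 to 0.40), for Shmt2 0.11 (-0.14 to 0.37), for Psat1 0.067 (-0.17 to 0.30) and for Phgdh 0.026 (-0.18 to 0.23), all with an edgeR adjusted p of at least 0.923. These intervals leave room for differences in Phgdh between 0.883 and 1.17 times and in Mthfd2 between 0.922 and 1.32 times, but not for a change of 1.5 times, which lay inside the interval of 1 gene, Aldh1l2, as a decrease to as little as 0.568 times. Without mKate2+ library 2 the log2 fold change was 0.036 for Phgdh, 0.088 for Mthfd2 and -0.35 for Aldh1l2. DESeq2 called 0 of the 10 genes by either rule.

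**Figure D4:**
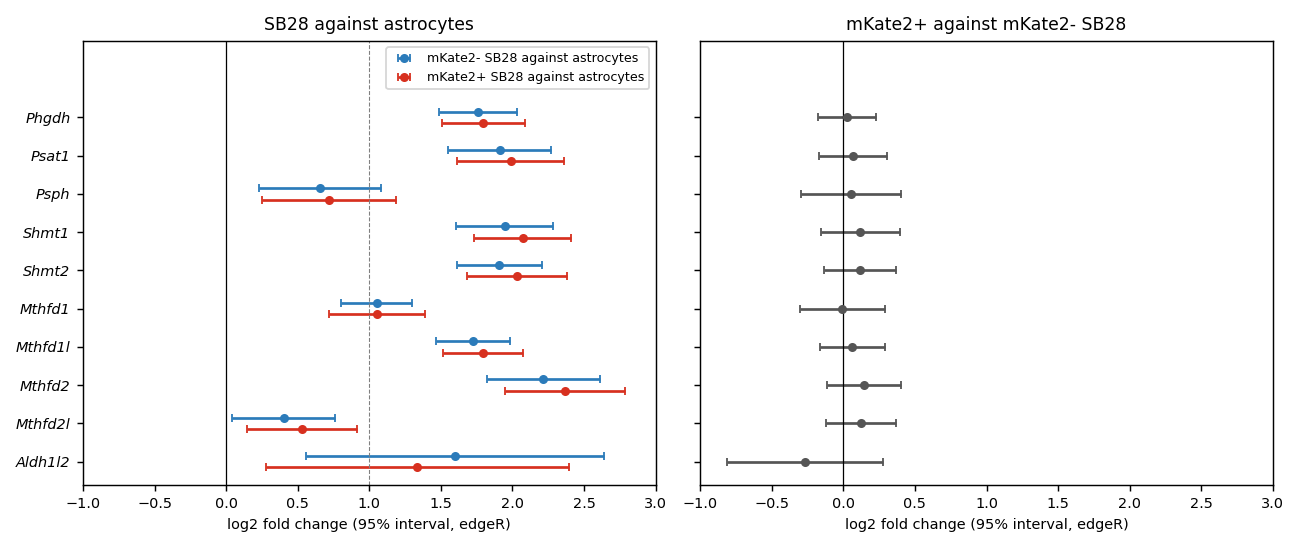
Log2 fold changes with 95% intervals from edgeR for the 10 genes, in SB28 populations against astrocytes (left, dashed line at 1) and in mKate2+ against mKate2- SB28 cells (right). On the left all points lie above 0, from 0.40 for Mthfd2l to 2.37 for Mthfd2, and on the right every interval includes 0.

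Genes around these enzymes were listed by function. Of 16 other genes of folate uptake, storage and use, 13 were tested, and at an adjusted p below 0.05 mKate2- cells had 8 above and 3 below their astrocyte level, with 7 higher and 2 lower in mKate2+ cells, against 29.3% and 33.8%, and 28.0% and 32.1%, of all genes. The median log2 fold change was 1.03 and 1.06, beside -0.038 and -0.018 over all genes tested. Without astrocyte library 3 the numbers higher were 8 and 7. Tyms, thymidylate synthase, which uses a folate-bound carbon to make thymidylate, had 16.4, 18.9 and 16.0 CPM in astrocytes, 60.2, 47.8 and 55.1 CPM in mKate2- libraries and 52.3, 54.5 and 59.4 CPM in mKate2+ cells. The log2 fold change of Tyms was 1.68 in mKate2- cells and 1.77 in mKate2+ cells. Gart, an enzyme of purine synthesis that uses formyl groups, differed by 1.59 and 1.68. Slc25a32, which carries folate into mitochondria, differed by 1.10 and 1.15. These 3 genes were higher in both populations.

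Aldh1l1, the cytosolic counterpart of Aldh1l2 and a widely used astrocyte marker, went the other way. It had 140, 111 and 172 CPM in astrocytes, 7.06, 8.41 and 6.33 CPM in mKate2- libraries and 7.88, 8.48 and 4.92 CPM in mKate2+ cells, so that the log2 fold changes were -4.26 and -4.23. The mKate2- and mKate2+ values of Aldh1l1 overlapped, and every SB28 library lay below every astrocyte library.

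The glycine cleavage system, a mitochondrial complex that takes a one-carbon unit from glycine, had 2 of its 4 genes higher and 2 lower in each SB28 population, beside 29.3% higher and 33.8% lower of all genes in mKate2- cells and 28.0% and 32.1% in mKate2+ cells, and so few genes allow no reading of these shares. Gldc, the glycine decarboxylase, had 9.28, 19.0 and 36.6 CPM in astrocytes and at most 0.699 CPM in SB28 cells (log2 fold changes -5.90 and -6.07), where as few as 5 counts stood behind a value. The log2 fold change of Gldc in mKate2- cells was -5.31 without astrocyte library 3 and -6.72 without mKate2- library 1. Amt, the aminomethyltransferase, had 26.5, 32.6 and 28.0 CPM in astrocytes and at most 1.58 CPM in SB28 cells (-4.52 and -4.51). Gcsh, the carrier protein of the complex, was higher by 1.17 and 1.30. Dld, the dehydrogenase that the complex shares with other enzymes, differed by 0.41 and 0.37, and its call in mKate2+ cells was lost under 6 of 12 alternatives, with an edgeR adjusted p of up to 0.0989 (without mKate2+ library 1). For Gldc and Amt every SB28 library lay below every astrocyte library.

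Of 16 tested genes of serine transport and use (18 listed), 5 were higher and 6 lower in mKate2- cells, and 5 higher and 5 lower in mKate2+ cells, shares near the 29.3% and 33.8%, and 28.0% and 32.1%, of all genes. Slc1a5, a transporter of neutral amino acids including serine, had 20.98, 24.9 and 22.9 CPM in astrocytes, 91.0, 87.5 and 78.4 CPM in mKate2- libraries and 92.1, 83.9 and 71.2 CPM in mKate2+ cells (log2 fold changes 1.92 and 1.92). Cbs, which joins serine to homocysteine, was lower by -4.29 and -4.41 on the log2 scale, and its astrocyte values of 15.4, 9.17 and 98.4 CPM were dominated by library 3, without which the log2 fold changes were -2.58 and -2.71. Cth, which completes the path to cysteine, was higher by 1.84 and 1.83, and Sdsl, a serine dehydratase-like gene, was lower by -2.04 and -2.05. Of 9 tested genes of the methionine cycle (15 listed), 5 were higher and 3 lower in each population, beside 29.3% and 33.8% of all genes in mKate2- cells and 28.0% and 32.1% in mKate2+ cells. The number higher in mKate2+ cells was 2 without mKate2+ library 1 or without mKate2+ library 3, and the number lower was 1 in each population without astrocyte library 3. Ahcy, which breaks down S-adenosylhomocysteine, was higher by 1.46 and 1.59, and Sardh, sarcosine dehydrogenase, was lower by -1.74 and -1.65. Mtr, methionine synthase, differed by 0.60 in mKate2- cells (edgeR adjusted p = 0.0312) and 0.66 in mKate2+ cells (edgeR adjusted p = 0.0282). The first call was lost with upper-quartile normalization (adjusted p = 0.0521) and without mKate2- library 1 (0.0722), 2 (0.0557) or 3 (0.1045), and the second without mKate2+ library 1 (0.0828) or 3 (0.0649).

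Of 10 genes for regulators and their targets, 5 were higher and 5 lower in mKate2- cells, against 29.3% and 33.8% of all genes, and 5 higher and 4 lower in mKate2+ cells, against 28.0% and 32.1%. Atf4 had 197, 191 and 148 CPM in astrocytes, 553, 552 and 450 CPM in mKate2- libraries and 522, 523 and 447 CPM in mKate2+ cells (log2 fold changes 1.55 and 1.55). Asns was higher by 2.32 and 2.41, Chac1, a glutathione-degrading enzyme, by 2.23 and 2.42, and Trib3, a pseudokinase, by 2.14 and 2.28. Ddit3, which encodes CHOP, was lower by -1.34 and -1.29, and Sesn2, another listed ATF4 target, by -0.67 and -0.65. In each of the 3 groups library 3 had the lowest value of Atf4, Asns, Chac1 and Trib3. The same was so for Psat1, Psph, Shmt2 and Mthfd2. It was not so for Phgdh, Shmt1, Mthfd1, Mthfd1l, Mthfd2l and Aldh1l2, nor for Ddit3 and Sesn2. How many of all genes had this pattern was not counted. Myc had 33.4, 54.0 and 38.9 CPM in astrocytes, 125, 132 and 127 CPM in mKate2- libraries and 123, 110 and 123 CPM in mKate2+ cells (1.62 and 1.57), whereas Mycn had 19.2, 10.1 and 10.8 CPM in astrocytes and at most 0.184 CPM in SB28 cells.

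All 16 genes of DNA replication that were listed as markers of S phase were higher in both SB28 populations, against 29.3% and 28.0% of all genes, with a median log2 fold change of 1.71 and 1.77 beside -0.038 and -0.018 over all genes tested. Their summed level was 876 ± 48.1 CPM in astrocytes, 2608 ± 177 CPM in mKate2- libraries and 2599 ± 245 CPM in mKate2+ cells (SD, n = 3 each). Mcm6 was higher by 2.04 and 2.03, Mcm5 by 2.17 and 2.26, Fen1 by 2.14 and 2.22 and Cdc6 by 1.90 and 1.96. These genes thus moved with the 10 enzyme genes, and their part in the result was not tested. Between mKate2+ and mKate2- cells, 0 genes of any of these lists passed an adjusted p of 0.05 in edgeR or DESeq2.

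**Figure D5:**
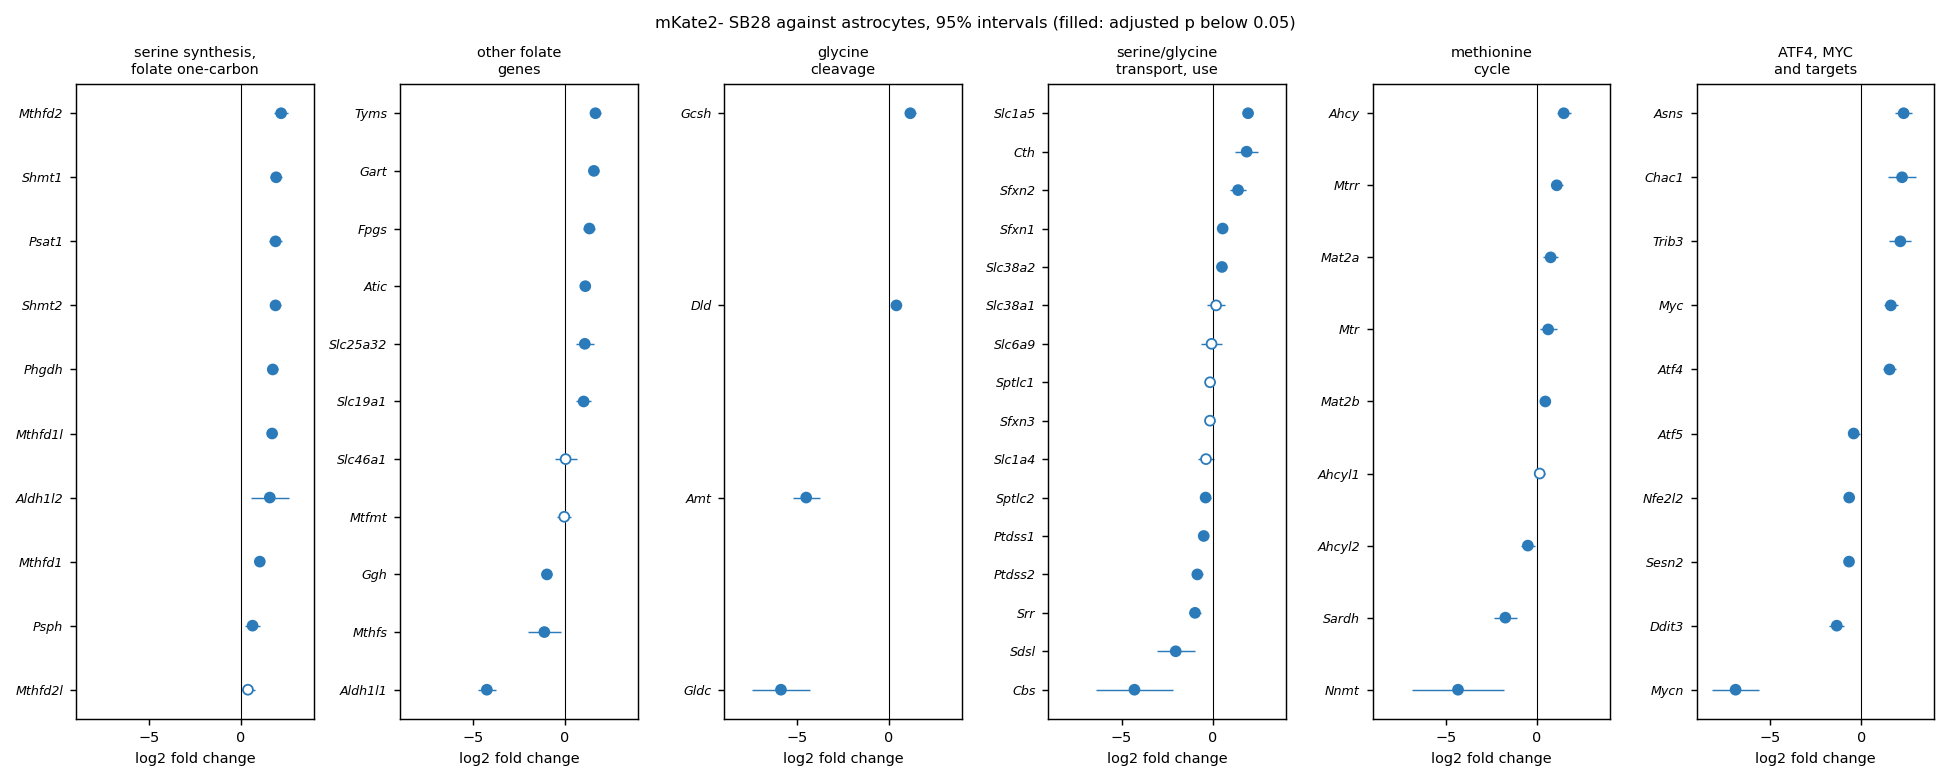
Log2 fold changes with 95% intervals from edgeR for mKate2- SB28 cells against astrocytes, for the 10 genes (first panel) and genes of 5 surrounding lists, with filled points where the adjusted p was below 0.05. Mycn, Gldc, Amt, Nnmt, Cbs and Aldh1l1 lie far to the left, at -6.87, -5.90, -4.52, -4.33, -4.29 and -4.26. Nnmt did not exceed 2.53 CPM in any library. Mthfd2l is the one open point of the first panel.

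Profiles over the 9 libraries were compared by the root mean square difference of centred log2(CPM + 1) values among 13449 genes. Among the 5 genes nearest to Phgdh were Errfi1 (0.077), Mapk11 (0.080), Tubb6 (0.094) and Usp12 (0.097). In nearness to Phgdh, Psat1 ranked 26, Mthfd1l 28, Shmt2 37, Shmt1 70, Mthfd2 476, Mthfd1 1070, Aldh1l2 2384, Psph 2400 and Mthfd2l 3495. The 5 nearest to Mthfd2 were Gcat (0.066), which cleaves a threonine product to glycine, Bok (0.079), Rnf183 (0.088), Asns (0.092) and Bcat1 (0.093), a transaminase of branched-chain amino acids. In nearness to Mthfd2, Shmt2 ranked 17, Psat1 21, Phgdh 105, Shmt1 111, Mthfd1l 142, Mthfd1 1289, Aldh1l2 1503, Psph 2174 and Mthfd2l 3437. The points share libraries and a common split between cell types, and these ranks are a description.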

How the data were processed

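Gene counts were deposited by the authors. According to the study's methods and the submitters' processing notes, paired-end Illumina reads were trimmed with Trimmomatic 0.36, aligned to GRCm38 with STAR 2.5.2b and counted per gene with featureCounts of Subread 1.5.2. The annotation release and the use of strand in counting are not given in the sources used here. Symbols came from GENCODE M21, which named 49056 of 49315 gene IDs, and Ddit3 was taken from the ID with most counts. Where 2 or more of the 6 libraries compared exceeded 1 CPM, the gene was tested with edgeR 4.0.16 in R 4.3.3 (TMM normalization, quasi-likelihood test, Benjamini-Hochberg adjustment), which was tested on simulated data. Calls followed the study's thresholds and an adjusted p of 0.05. Alternatives were DESeq2 1.42.0, upper-quartile normalization, no filter, all 9 libraries in 1 fit, the replicate number as a block, removal of a gene length trend (loess span 0.3) and leaving out each library. Genes named were the 10 genes, others of prior interest, up to 4 per list with the largest change in mKate2- cells among those past both thresholds against astrocytes in both populations, and the 5 nearest in profile to Phgdh and to Mthfd2. Ddit3, Sesn2 and several marker genes were named after their values were seen. Single values of some listed genes are not reported here, though the counts over lists include them. The members and lists were chosen with earlier results of these data known. The 3 libraries of a group come from distinct co-cultures.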

Additional observations from a re-analysis of the deposited data

How the results depend on the processing

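The calls of Phgdh, Psat1, Shmt1, Shmt2, Mthfd1, Mthfd1l and Mthfd2 against astrocytes at an adjusted p of 0.05 were the same under all 12 alternatives of each comparison, whereas those of Psph, Mthfd2l and Aldh1l2 changed as given above. The added threshold of a log2 fold change above 1 was less stable, with Mthfd1 close to it. Mthfd2l also passed in mKate2- cells with DESeq2 (log2 0.39, adjusted p = 0.0495) and with all 9 libraries (0.40, 0.0317), and did not pass in mKate2+ cells with upper-quartile normalization (0.43, 0.0550). Between mKate2+ and mKate2- cells, the number of genes higher by the study's thresholds was 23, and became 62 with DESeq2, 224 without a filter, 44 with all 9 libraries, 15 with the length trend removed and 6 to 310 on leaving out a library, with 6 without mKate2+ library 2, 310 without mKate2+ library 1 and 233 without mKate2+ library 3. The number lower was 20, and became 35 without a filter, 13 with all 9 libraries and 16 to 70 on leaving out a library, with 70 without mKate2+ library 1. The cause was not tested. In that comparison the sign of Phgdh turned with the length trend removed (-0.027) and on leaving out a library (-0.016 to 0.085), as did that of Psph (-0.097 to 0.16), Mthfd1l (-0.016 to 0.14) and Mthfd1 (-0.097 to 0.11, and 0.0013 without a filter), with 0 of the 10 genes called in any of these.

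With the replicate number as a block, the study's thresholds, which use the unadjusted p, gave 13 genes higher and 33 lower between mKate2+ and mKate2- cells. Of the 10 genes 0 passed, with a log2 fold change of 0.028 for Phgdh and 0.14 for Mthfd2. Deviations from the group means correlated between same-numbered mKate2- and mKate2+ libraries at -0.099, 0.12 and 0.39 over 10505 genes, and not every library correlated best with its own number. Whether a number marks the same co-culture in the 3 populations is not given in the labels and was not settled by these values. Against astrocytes the block moved Cbs to -3.54 in mKate2- cells and -3.60 in mKate2+ cells.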
